A study of Homo sapiens with 24 samples.

Results

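The genes described here encode chaperones of the endoplasmic reticulum and components of the unfolded protein response. They are a list of 10, set by gene name with no threshold on a measured value, though with earlier results of these data known: HSPA5, HSP90B1, XBP1, ERN1, ATF6, DNAJB9, SDF2L1, HERPUD1, PDIA4 and CALR. Of the 10, 9 were measured, each by 1 probe set, among 17687 genes on the arrays, and HSP90B1 was not analysed here. RNA came from ES8, a Ewing sarcoma cell line, and from ES8-1F2, 1 derivative line of ES8 whose SLFN11 gene was knocked out with CRISPR/Cas9. SLFN11 encodes a protein that acts at stressed replication forks. The 8 groups, of 3 arrays each, were knockout cells after 2 Gy of gamma radiation at 24 h, knockout cells at 0 Gy and 24 h, knockout cells after 2 Gy at 4 h, knockout cells at 0 Gy and 4 h, and the same 4 conditions in parental cells. All cells grew in the same serum-containing medium, and the labels name no agent that provokes endoplasmic reticulum stress. A single knockout line stands against its parent, so effects of SLFN11 loss and other differences between the 2 lines cannot be told apart.

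The endoplasmic reticulum folds secreted and membrane proteins. When unfolded proteins build up in it, 3 sensors in its membrane signal: IRE1 (gene ERN1), ATF6 and PERK (gene EIF2AK3). IRE1 splices the mRNA of XBP1 into a form that encodes an active transcription factor, ATF6 is itself cleaved into one, and PERK slows translation while favouring that of ATF4. XBP1 and ATF6 then raise the genes of chaperones (HSPA5, HSP90B1, CALR), of their helpers (DNAJB9, SDF2L1, PDIA4) and of the machinery that removes misfolded proteins (HERPUD1). HSPA5, also called BiP, is the main chaperone of the compartment and the usual marker of this response.

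The promoters of several of these genes hold the elements through which the response is known to act, and these are shown because they mark which members carry the same element. RefSeq windows on GRCh38.p14, from 250 bases before to 50 bases after each annotated start, were searched on both strands for the endoplasmic reticulum stress element (ERSE: CCAAT, any 9 bases, then CCACG), its second form (ERSE-II: ATTGG, any 1 base, then CCACG) and a core of the unfolded protein response element (TGACGTGG). The capitals mark the fixed letters of each element, read 5′ to 3′ along the gene's strand, so that elements lying on the other strand appear as CGTGG before ATTGG or CCAAT.
HSPA5 (chr9:125241385-125241415, minus strand, ERSE): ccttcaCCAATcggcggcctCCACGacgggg
HSP90B1, first match (chr12:103930210-103930240, plus strand, ERSE): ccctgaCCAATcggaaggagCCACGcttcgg
HSP90B1, second match (chr12:103930315-103930345, plus strand, ERSE on the other strand): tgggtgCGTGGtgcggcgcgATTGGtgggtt
XBP1 (chr22:28800597-28800627, minus strand, ERSE): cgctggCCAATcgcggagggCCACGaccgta
CALR (chr19:12938378-12938408, plus strand, ERSE on the other strand): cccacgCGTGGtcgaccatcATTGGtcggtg
SDF2L1 (chr22:21642108-21642130, plus strand, ERSE-II on the other strand): cggaagCGTGGaCCAATcaaaac
HERPUD1 (chr16:56932019-56932041, plus strand, ERSE-II): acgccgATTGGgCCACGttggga

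All 10 genes had a window. An ERSE stood in the windows of HSPA5, HSP90B1, XBP1 (1 of its 2 windows) and CALR, and in 27 of all 35116 RefSeq windows of this length (0.0769%). An ERSE-II stood in those of SDF2L1 and HERPUD1, and in 19 of all windows (0.0541%). The unfolded protein response element core was in 256 windows (0.729%) and in none of the 10 genes'. The windows of ERN1, ATF6, DNAJB9 and PDIA4 held none of the 3 letter strings, which says only that these letters are not in those windows. The printed stretches begin between 58 and 231 bases before the start, XBP1's being the nearest and CALR's the farthest. A match is a description of the sequence; no binding was measured.

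SLFN11 itself checked the labels. Its log2 signal in the 12 knockout arrays lay between 6.33 and 7.07, against 8.03 to 8.63 in the 12 parental arrays, and the mean difference was -1.47 (SE 0.07, limma adjusted p = 1.07e-18). The knockout signal stayed above background, and whether the probe set covers the edited stretch was not checked here. Of 9 measured Ewing sarcoma cell markers, all were above background on all 24 arrays, with line means of 4.79 to 9.92 in knockout cells and 5.25 to 9.64 in parental cells. Above background on all 24 arrays were also the epithelial markers KRT5 and KRT19 (2 of 6), the blood marker CD14 (1 of 5) and the endothelial markers VWF and CLDN5 (2 of 6). CDH5 was above it on 21 arrays and CLDN4 on 18. EPCAM, KRT14, PTPRC, CD3E, HBB and PECAM1 were above it on 1 to 6 arrays, and CDH1, LYZ, KDR and TEK on none. Replicate 2 of both parental 2 Gy groups had the narrowest interquartile range of signal, 3.34 at 24 h and 3.28 at 4 h, against 3.42 to 3.62 on the others.

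All 9 measured members were above background on all 24 arrays. On each array the background level was the signal that 95% of its 612 negative controls stayed below, and it lay between 3.46 and 3.81. All values below are log2 signals of 1 probe set, so a difference of 1 is a 2-fold difference, and signals of different genes are not set against each other.

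Averaged over the 4 conditions, ERN1 and DNAJB9 were higher in knockout cells, by 1.25-fold and 1.24-fold, and neither HSPA5 nor any other measured member was called. A gene was called where its Benjamini-Hochberg adjusted p over all 17687 genes was below 0.05. In this comparison 30.4% of all genes were called, so 2 of 9 called in either direction is a share below that of all genes. Both were called higher, a share above the 15.8% of all genes called higher, though it rests on 2 genes. The members' median difference was 0.06, against -0.02 over all genes. Of the members, 8 of 9 lay above 0, while 55.6% of all genes lay below 0.

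Among the sensors, ERN1 encodes IRE1, the kinase and endonuclease that splices XBP1. In knockout cells its signal was 5.57, 5.55 and 5.34 after 2 Gy at 24 h, 5.31, 5.04 and 5.10 at 0 Gy and 24 h, 5.60, 5.31 and 5.45 after 2 Gy at 4 h, and 4.81, 5.45 and 5.32 at 0 Gy and 4 h. In parental cells in the same order of conditions it was 5.23, 5.31 and 5.47, then 4.72, 5.20 and 4.50, then 5.15, 4.997 and 4.84, and 4.97, 4.87 and 4.77. The knockout arrays were the higher ones in each condition on average, but the 2 lines overlapped in every condition except 2 Gy at 4 h. The differences were 0.15, 0.34, 0.46 and 0.33 in that order of conditions, and their mean was 0.32 (SE 0.09, 95% interval 0.14 to 0.50, limma adjusted p = 0.00486). ERN1 was called in this mean in all 32 alternative settings, with differences of 0.28 to 0.37 and adjusted p of 0.000925 to 0.0139.

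ATF6 encodes the sensor that is cut in the Golgi apparatus to release a transcription factor. Its signal ranged from 8.42 to 8.70 with a median of 8.51 in knockout cells, and from 8.33 to 8.65 with a median of 8.45 in parental cells. The ranges overlapped over most of their length, and the mean difference was 0.06 (95% interval -0.02 to 0.14, limma adjusted p = 0.281).

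XBP1, the transcription factor that IRE1 activates by splicing, was read by a single probe set for the gene, which does not separate spliced from unspliced mRNA. Its signal ranged from 7.06 to 7.46 (median 7.34) in knockout cells and from 7.04 to 7.55 (median 7.34) in parental cells. The interval of its mean difference, -0.13 to 0.13, was centred near 0 (limma adjusted p = 0.981). A change in splicing would not be seen in these values.

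**Figure D1:**
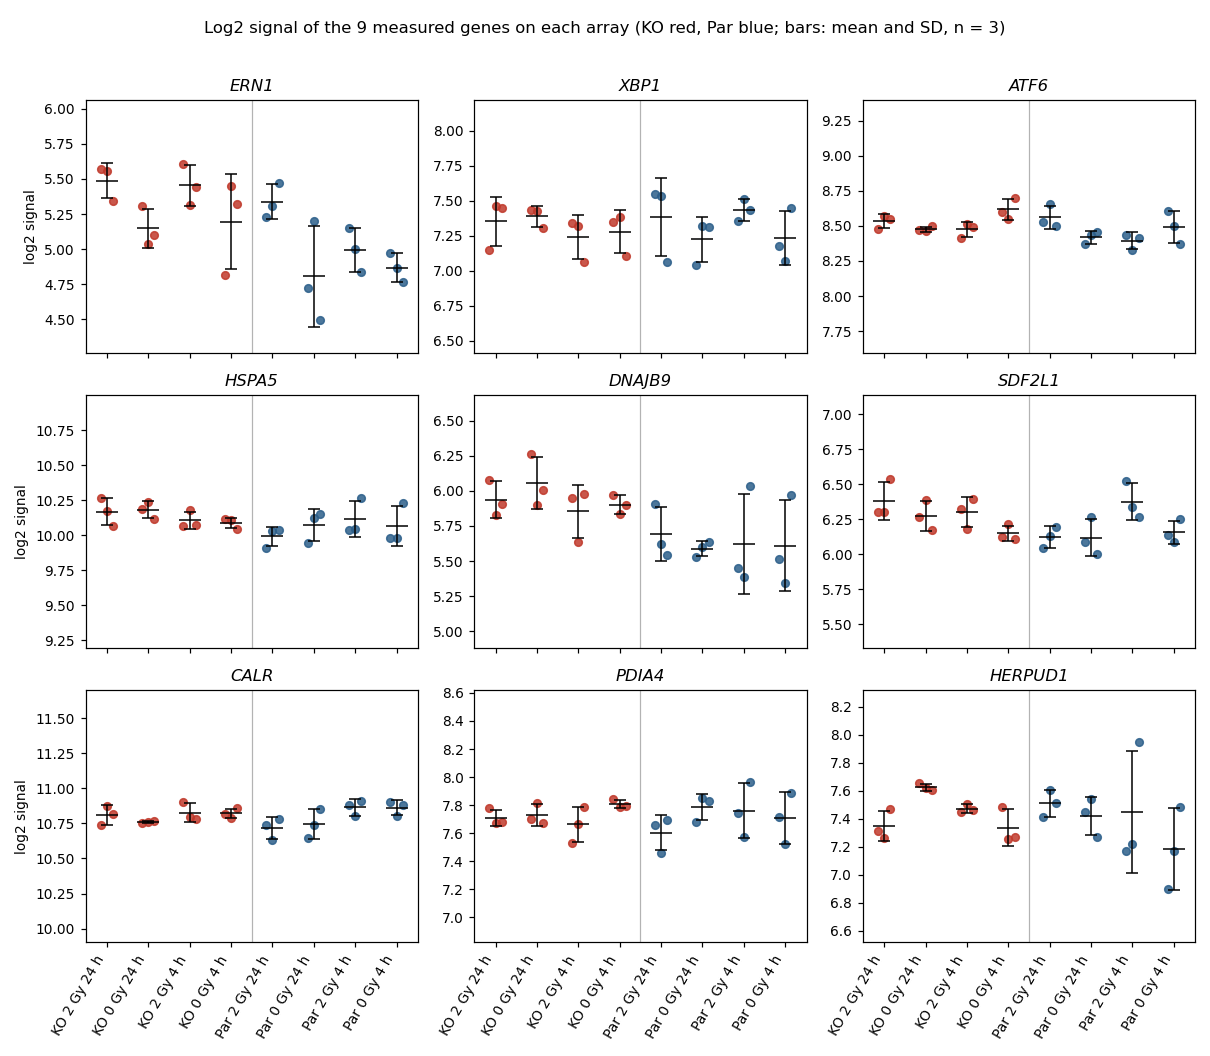
Log2 signal (vertical axis) of each of the 9 measured genes on each of the 24 arrays, by group along the horizontal axis, with knockout groups (KO, red) left of parental groups (Par, blue). Points are arrays and bars are means ± SD (n = 3). ERN1 and DNAJB9 sit higher on knockout arrays on average, with overlap, and CALR ranges from 10.74 to 10.91 in knockout cells and from 10.63 to 10.91 in parental cells.

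Among the chaperones, HSPA5 had signals of 10.26, 10.17 and 10.07 in knockout cells after 2 Gy at 24 h, 10.19, 10.24 and 10.12 at 0 Gy and 24 h, 10.07, 10.18 and 10.07 after 2 Gy at 4 h, and 10.11, 10.11 and 10.04 at 0 Gy and 4 h. In parental cells in the same order they were 9.91, 10.03 and 10.04, then 9.94, 10.13 and 10.15, then 10.04, 10.04 and 10.27, and 9.98, 9.98 and 10.23. All 24 values lay between 9.91 and 10.27, and the lines overlapped in all conditions except 2 Gy at 24 h. The mean difference was 0.07 (SE 0.04, 95% interval -0.002 to 0.150, limma adjusted p = 0.142). HSPA5 was called in 3 of 32 alternative settings, all higher: with array weights (0.10, adjusted p = 0.033), with each array centred on its median (0.10, adjusted p = 0.0478) and without parental 0 Gy, 4 h replicate 3 (0.09, adjusted p = 0.0447). Under none of the settings did the difference exceed 0.10.

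CALR encodes calreticulin, a lectin chaperone and calcium store protein. It had a median of 10.79 in knockout cells, with a range of 10.74 to 10.91, and a median of 10.80 in parental cells, with a range of 10.63 to 10.91. Its interval was the narrowest among the members, -0.05 to 0.07, around a mean difference of 0.01 (limma adjusted p = 0.905).

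DNAJB9 encodes ERdj4, a co-chaperone of BiP that is known as a target of XBP1 and as a repressor of IRE1. In knockout cells its signal was 6.08, 5.83 and 5.91 after 2 Gy at 24 h, 6.26, 5.90 and 6.01 at 0 Gy and 24 h, 5.95, 5.63 and 5.98 after 2 Gy at 4 h, and 5.97, 5.83 and 5.90 at 0 Gy and 4 h. In parental cells in that order it was 5.91, 5.62 and 5.55, then 5.53, 5.60 and 5.63, then 5.45, 5.38 and 6.03, and 5.52, 5.34 and 5.97. The lines were apart at 0 Gy and 24 h and overlapped elsewhere, with replicate 3 of both parental 4 h groups as high as the knockout arrays. The differences were 0.25, 0.47, 0.23 and 0.29 in the same order, with a mean of 0.31 (SE 0.08, 95% interval 0.14 to 0.48, limma adjusted p = 0.00448). It was called in this mean in all 32 alternative settings, with differences of 0.27 to 0.36 and adjusted p of 0.000519 to 0.0171.

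DNAJB9 also moved with the signal range of the arrays. Its deviations from the group means correlated with those of the interquartile range (r = 0.63 over 24 arrays, a description with no test), and that range lay between 3.42 and 3.62 on knockout arrays and between 3.28 and 3.57 on parental arrays. Cyclic loess scaling of the arrays left its mean difference at 0.31 (limma adjusted p = 0.00368), and leaving out the 2 arrays of narrowest range gave 0.27 (adjusted p = 0.0171). ERN1 did not move with that range in the same way (r = -0.10). The part of that range in the line difference of DNAJB9 was not tested.

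SDF2L1, a co-chaperone that works with BiP's DNAJ partners, had a range of 6.11 to 6.54 (median 6.28) in knockout cells and of 6.01 to 6.52 (median 6.17) in parental cells. PDIA4 encodes a protein disulfide isomerase, and its signal ran from 7.53 to 7.84 (median 7.74) in knockout cells and from 7.46 to 7.96 (median 7.70) in parental cells. HERPUD1, a membrane protein of the degradation machinery, ran from 7.25 to 7.65 (median 7.47) in knockout cells and from 6.90 to 7.95 (median 7.43) in parental cells. For these 3 genes the knockout range lay within the parental range or overlapped most of it. Their mean differences were 0.08 (95% interval -0.04 to 0.21), 0.01 (-0.09 to 0.12) and 0.06 (-0.09 to 0.20), with limma adjusted p of 0.35, 0.888 and 0.627.

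In the single conditions, 0 of 9 members were called between the lines, where limma called 12% of all genes after 2 Gy at 24 h, 11.6% at 0 Gy and 24 h, 12% after 2 Gy at 4 h and 11.8% at 0 Gy and 4 h. Before adjustment, p was below 0.05 for 3828, 3871, 4047 and 3791 of the 17687 genes in that order. Of the 36 member values, 4 had an unadjusted p below 0.05, a smaller share than among all genes. In all 4 the knockout arrays lay above the parental arrays without overlap. They were DNAJB9 at 0 Gy and 24 h (0.47, SE 0.17, limma adjusted p = 0.0711), ERN1 after 2 Gy at 4 h (0.46, SE 0.18, adjusted p = 0.0931), HSPA5 after 2 Gy at 24 h (0.18, SE 0.07, adjusted p = 0.142) and SDF2L1 after 2 Gy at 24 h (0.26, SE 0.12, adjusted p = 0.206). For SDF2L1 the arrays behind that value were 6.30, 6.30 and 6.54 in knockout cells and 6.04, 6.13 and 6.19 in parental cells. DNAJB9 at 0 Gy and 24 h was called in 4 of 16 alternative settings, over which its adjusted p ran from 0.0314 to 0.303. Overlap was not counted over all genes in any comparison, so its absence does not set a member apart from other genes. Without overlap but with an unadjusted p above 0.05 were 3 further values. XBP1 after 2 Gy at 4 h was the 1 with the knockout arrays below, at 7.34, 7.32 and 7.06, against 7.36, 7.51 and 7.43 in parental cells (-0.19, limma adjusted p = 0.413). ATF6 (0.06, adjusted p = 0.764) and HERPUD1 (0.20, adjusted p = 0.466) had the knockout arrays above at 0 Gy and 24 h. The 95% intervals of all 36 values lay between -0.46 and 0.82, so none of them held a 2-fold difference in either direction.

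After 2 Gy, 0 of 9 members were called in any of the 4 comparisons with 0 Gy, which share no arrays with each other but use the same arrays as the line comparisons. Over all genes the shares were also small, and limma called 0% of all genes in knockout cells at 24 h, 0% in knockout cells at 4 h, 0.0678% in parental cells at 24 h and 0.226% in parental cells at 4 h. Before adjustment, p was below 0.05 for 736, 583, 1225 and 1183 of the 17687 genes in that order, and for 1 of the 36 member values, that of ERN1 in parental cells at 24 h. All 36 intervals excluded a 2-fold change, and 31 of them lay within 0.5 log2 units of 0.

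In parental cells at 24 h, ERN1 had signals of 5.23, 5.31 and 5.47 after 2 Gy and of 4.72, 5.20 and 4.50 at 0 Gy. Every irradiated array was above every unirradiated one, though the highest unirradiated array, at 5.20, was close to the lowest irradiated one, at 5.23. The difference was 0.53 (SE 0.18, 95% interval 0.17 to 0.89, unadjusted p = 0.00503), and it did not pass the test over all genes (limma adjusted p = 0.419). In knockout cells at 24 h, ERN1 had 5.57, 5.55 and 5.34 after 2 Gy and 5.31, 5.04 and 5.10 at 0 Gy, again without overlap, with a difference of 0.34 (95% interval -0.02 to 0.70, limma adjusted p = 0.999). At 4 h the differences were 0.26 in knockout cells and 0.13 in parental cells, with overlap in both lines.

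None of the irradiation differences of the other members was called. ATF6 differed in sign between the times in both lines: 0.06 in knockout cells and 0.14 in parental cells at 24 h, and -0.14 in knockout cells and -0.10 in parental cells at 4 h. Its arrays in knockout cells at 4 h were 8.42, 8.52 and 8.49 after 2 Gy and 8.60, 8.55 and 8.70 at 0 Gy, without overlap. In parental cells at 24 h they were 8.53, 8.65 and 8.50 after 2 Gy and 8.37, 8.43 and 8.46 at 0 Gy, again without overlap. The adjusted p-values of ATF6 in limma were 0.781 or more in all 4 comparisons. SDF2L1 did not overlap between doses in parental cells at 4 h, with 6.52, 6.34 and 6.26 after 2 Gy and 6.14, 6.09 and 6.25 at 0 Gy, a difference of 0.22 (limma adjusted p = 0.784). XBP1 differed by -0.04 in knockout cells at both times, by 0.16 in parental cells at 24 h and by 0.20 in parental cells at 4 h, with overlap in each. DNAJB9, higher in knockout cells on average, had irradiation differences of -0.12 and -0.05 in knockout cells and of 0.10 and 0.01 in parental cells at 24 h and 4 h, each smaller than its mean line difference of 0.31. PDIA4 lay lower after 2 Gy in knockout cells at 4 h (-0.14) and in parental cells at 24 h (-0.18), and its arrays overlapped in both.

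The intervals bound the size of the irradiation differences of the chaperones. For HSPA5, the 4 intervals together ran from -0.23 to 0.20, and for CALR from -0.15 to 0.17. The interval of HERPUD1 reached farthest down. Its signals in knockout cells at 24 h were 7.31, 7.26 and 7.47 after 2 Gy and 7.65, 7.62 and 7.60 at 0 Gy. All 3 irradiated arrays were below all 3 unirradiated ones, with a difference of -0.28 (95% interval -0.57 to 0.02, limma adjusted p = 0.999), and in parental cells at 24 h the difference was 0.09. The test of the line difference in this response gave -0.36 and was not called. Over all members, limma called 0 of 9 differences in response at 24 h and 0 of 9 at 4 h (0% of all genes in both), and no member had an unadjusted p below 0.05 there, the lowest being 0.0832.

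**Figure D2:**
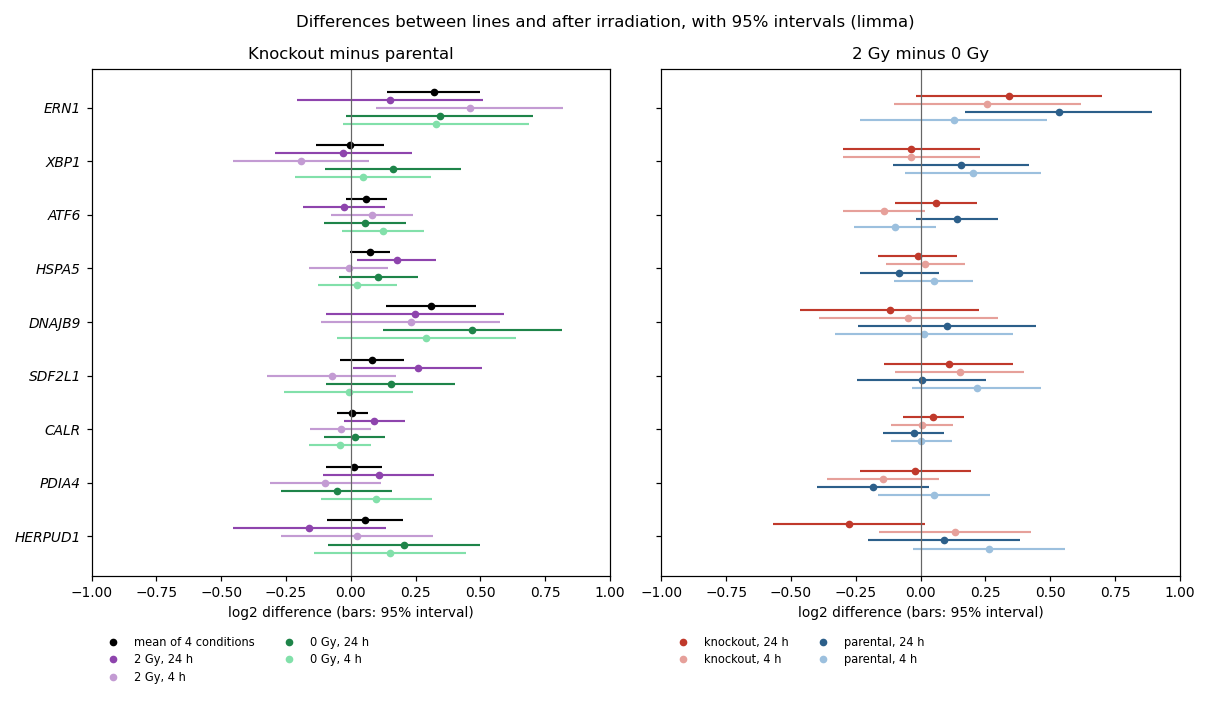
Log2 differences with 95% intervals from limma for the 9 measured genes. The left panel gives knockout minus parental (black, mean of 4 conditions; colours, single conditions) and the right panel the effect of irradiation, 2 Gy minus 0 Gy, for either line and time. The mean intervals of ERN1 (0.14 to 0.50) and DNAJB9 (0.14 to 0.48) lie above 0, and no interval reaches -1 or 1.

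Between 24 h and 4 h, 0 of 9 members were called in any of the 4 comparisons, against 0.0452% of all genes in knockout cells after 2 Gy, 0% in knockout cells at 0 Gy, 0.695% in parental cells after 2 Gy and 0% in parental cells at 0 Gy. Before adjustment, p was below 0.05 for 1405, 1215, 1556 and 830 of the 17687 genes in that order. Among the members it was so for 3 of 36 values, all in parental cells after 2 Gy. ATF6 had 8.53, 8.65 and 8.50 at 24 h and 8.44, 8.33 and 8.42 at 4 h, a difference of 0.17 (limma adjusted p = 0.524). SDF2L1 had 6.04, 6.13 and 6.19 at 24 h and 6.52, 6.34 and 6.26 at 4 h, a difference of -0.25 (adjusted p = 0.561). CALR had 10.74, 10.63 and 10.79 at 24 h and 10.88, 10.80 and 10.91 at 4 h, a difference of -0.15 (adjusted p = 0.387). In each of these 3 the times did not overlap, with ATF6 higher and SDF2L1 and CALR lower at 24 h. Without irradiation the largest time difference was that of HERPUD1 in knockout cells, with 7.65, 7.62 and 7.60 at 24 h and 7.49, 7.25 and 7.27 at 4 h. All 24 h arrays were above all 4 h arrays, and the difference of 0.29 was not called (limma adjusted p = 0.733). In parental cells HERPUD1 differed by 0.24 between the times, with overlap. The line differences in change over time had 0 of 9 members called at either dose (0% of all genes in both), and their lowest unadjusted p was 0.0626.

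The other genes of the pathway were read in 9 lists, 155 of 167 listed genes being measured. Averaged over conditions, 42 of the 155 were called higher and 25 lower in knockout cells by limma, and their median difference was 0.03. The PERK branch, the arm of the response that acts through translation and ATF4, had 2 genes higher and 4 lower of 7. Lower were TRIB3, a pseudokinase target of ATF4 and CHOP (-1.16, SE 0.12, limma adjusted p = 2.66e-09), CHAC1, which breaks down glutathione (-0.79, SE 0.08), DDIT3, which encodes CHOP (-0.59, SE 0.10), and ATF4 itself (-0.28, SE 0.05). Higher were EIF2AK3, the PERK kinase (0.59, SE 0.08), and PPP1R15A, which encodes a subunit that reverses PERK's effect on translation (0.30, SE 0.09). In the single conditions TRIB3 was called lower in all 4, by -1.78 after 2 Gy at 24 h, -0.88 at 0 Gy and 24 h, -0.78 after 2 Gy at 4 h and -1.19 at 0 Gy and 4 h. At 0 Gy and 24 h, dropping knockout replicate 1 or 3 or parental replicate 1 or 2 removed the call (adjusted p of up to 0.102), as did dropping knockout replicate 3 or parental replicate 1 or 2 after 2 Gy at 4 h (up to 0.193). CHAC1 was called lower after 2 Gy at 24 h (-1.29) and at 4 h (-1.23), DDIT3 after 2 Gy at 24 h (-1.35), and ATF4 after 2 Gy at 24 h (-0.41) and at 0 Gy and 24 h (-0.30). EIF2AK3 was called higher in 3 of the 4 conditions, after 2 Gy at 24 h (0.62), at 0 Gy and 24 h (0.66) and after 2 Gy at 4 h (0.65), and PPP1R15A at 0 Gy and 4 h (0.51). Besides those of TRIB3, single arrays decided 3 of these calls. The EIF2AK3 call after 2 Gy at 24 h went without knockout replicate 1 (adjusted p = 0.0709), the ATF4 call at 0 Gy and 24 h without knockout replicate 1 or 3 or parental replicate 2 (up to 0.113), and the PPP1R15A call without knockout replicate 1 or 3 or parental replicate 2 or 3 (up to 0.22). Other settings removed calls too. TRIB3 after 2 Gy at 4 h lost its call with no intensity trend (limma adjusted p = 0.0624) and without both arrays of narrow range (0.08). The ATF4 call at 0 Gy and 24 h went with no intensity trend (0.0685). That of PPP1R15A went with array weights (0.0572) and with only the compared arrays (0.0502). For the difference between the lines in response to 2 Gy, limma called 0 of the 155 genes at either time.

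Among genes for removing misfolded proteins, 8 of 26 were called higher and 1 lower. The ubiquitin ligase RNF139 (1.53, SE 0.04) and DERL1, a channel component (1.38, SE 0.03), had the largest differences, followed by EDEM1, a mannosidase-like protein that targets glycoproteins for degradation (0.72, SE 0.09). The lectin OS9 was lower (-0.34, SE 0.05). RNF139 and DERL1 lay among genes that differed between the lines in the same direction. Of the 20 measured genes on either side of DERL1, 24 of 40 were called higher and 0 lower, with a median of 0.58. Of those around RNF139, 20 of 40 were called higher and 5 lower, with a median of 0.25. TRIB3 of the PERK branch, itself lower in knockout cells, had 31 such neighbours, of which 14 were called lower and 1 higher (median -0.14). Around ERN1, 5 of 40 were called higher and 7 lower (median -0.08), and around DNAJB9 10 of 40 higher and 5 lower (median 0.01). The part of chromosomal position in any of these differences was not tested.

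Chaperones and foldases outside the list split in both directions. Of 18 other chaperones and co-chaperones, 5 were higher, with the collagen chaperone SERPINH1 first (0.42, SE 0.05), and 2 lower, with CLGN, calmegin, first (-1.26, SE 0.13). Of 24 other disulfide isomerases and foldases, 2 were higher and 8 lower, led by TMX4 (-1.25, SE 0.09), around which 26 of 40 neighbouring genes were also lower (median -0.69), and ERO1A, the oxidase that recharges disulfide isomerases (-0.57, SE 0.05). Of 13 genes of the calnexin cycle and glycan trimming, 3 were higher and 1 lower, STT3B of the oligosaccharyltransferase having the largest difference (0.30, SE 0.04). The remaining sensors and their proteases had 2 higher and 0 lower of 9, the membrane-bound factors CREB3L2 (0.58, SE 0.08) and CREB3 (0.32, SE 0.06).

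Of 23 translocation genes 8 were higher and 4 lower, with SEC11A, a signal peptidase subunit, at 0.47 (SE 0.04). Of 15 genes of calcium handling 7 were higher and 3 lower, with the calcium channels ITPR1 at 0.88 (SE 0.09) and ITPR3 at -0.36 (SE 0.11), and 17 of 29 neighbours of ITPR1 were also higher. A last list, mainly of cytosolic and mitochondrial chaperones, had 5 of 20 higher and 2 lower, with the small heat shock protein HSPB1 at 0.75 (SE 0.04). Among the 5, HSPA13 (0.35, SE 0.07), is a microsomal chaperone and so no cytosolic or mitochondrial one. All these calls are read against the shares among all genes, 15.8% higher and 14.6% lower.

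**Figure D3:**
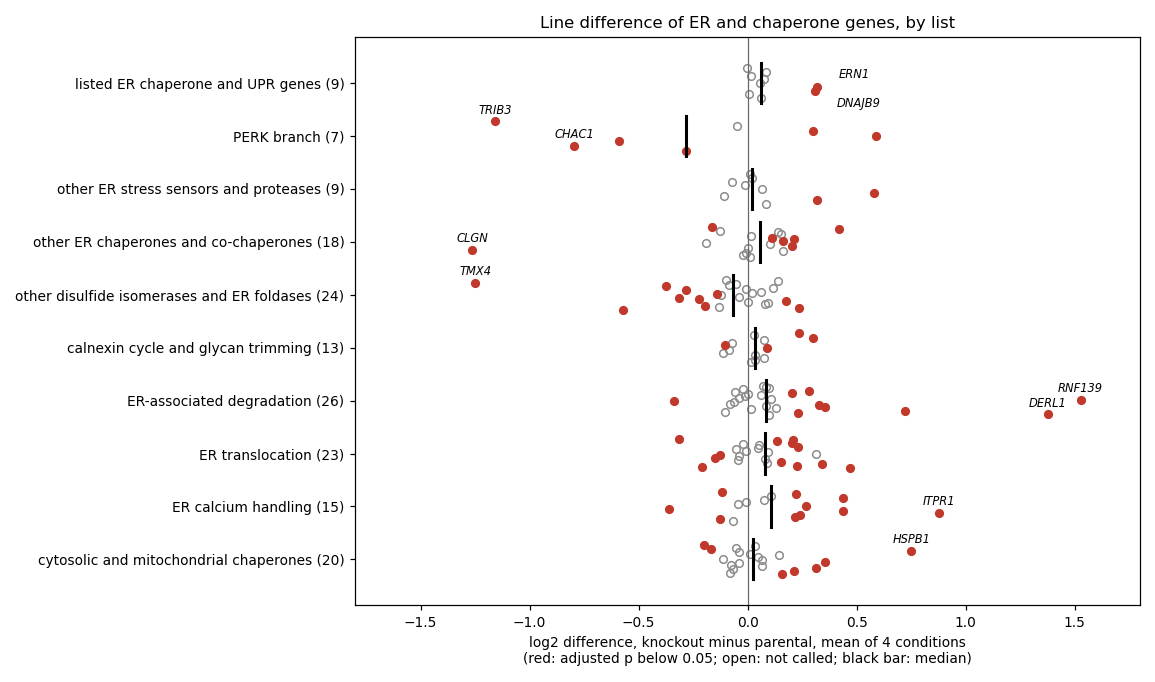
Log2 difference between the lines (horizontal axis, knockout minus parental, mean of 4 conditions) for the listed ER chaperone and unfolded protein response genes and for 9 other lists, with the number of measured genes in brackets. Red points passed the limma test (adjusted p below 0.05), open points did not, and black bars are medians. The PERK branch has a median of -0.28, and the top row holds 2 red points, ERN1 and DNAJB9, at 0.32 and 0.31.

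After irradiation, 1 of the 155 genes was called in any comparison. CHAC1 was higher after 2 Gy in parental cells at 24 h, by 1.22 (SE 0.16, limma adjusted p = 0.000147). In knockout cells at that time its means were 5.78 after 2 Gy and 5.63 at 0 Gy, and none of the 155 genes was called. The difference between the lines in this response was not called either. Over time, RCN3, a calcium-binding protein of the secretory pathway, was higher (0.49) and the cytosolic co-chaperone DNAJB1 lower (-0.71) at 24 h than at 4 h in parental cells after 2 Gy (limma adjusted p = 0.0178 and 0.0161). Both calls were lost without replicate 1 or 3 of the 24 h or of the 4 h group, and that of RCN3 also without replicate 2 of the 24 h group (adjusted p of up to 0.125 for RCN3 and 0.102 for DNAJB1).

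The members were also compared for how they varied together from array to array. Each value was expressed as its deviation from the mean of its group, which removes the line, dose and time. Among all 36 pairs of members the median r was 0.01, and 18 pairs lay above 0. HSPA5, PDIA4, HERPUD1 and DNAJB9 had the closest deviations, with r of 0.47 to 0.66 in their 6 pairs and Spearman's rho of 0.26 to 0.63 over 24 arrays. These 4 were singled out after the values were seen, so no test is given. The deviations of ERN1, ATF6, CALR, XBP1 and SDF2L1 followed theirs less closely, with r of at most 0.36.

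This covariation rested in part on replicate 3 of the parental 4 h groups. On those arrays the members lay on average 0.12 above their group means at both doses, with 7 of 9 members above in each, and the interquartile ranges there were 3.57 at both doses, the widest of the parental arrays. HERPUD1 read 7.95 and 7.49 on them after 2 Gy and at 0 Gy, against at most 7.22 and 7.17 on the other replicates. Without those 2 arrays the 6 correlations were 0.09 to 0.48 over 22 arrays, HSPA5 with PDIA4 remaining the highest. Over 24 arrays, the deviations of PDIA4, HERPUD1 and HSPA5 had r of 0.67, 0.46 and 0.25 with those of the interquartile range. Without the same 2 arrays these were 0.55, 0.17 and -0.05, and that of DNAJB9 was 0.48. The part of that range in the covariation was not tested.

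**Figure D4:**
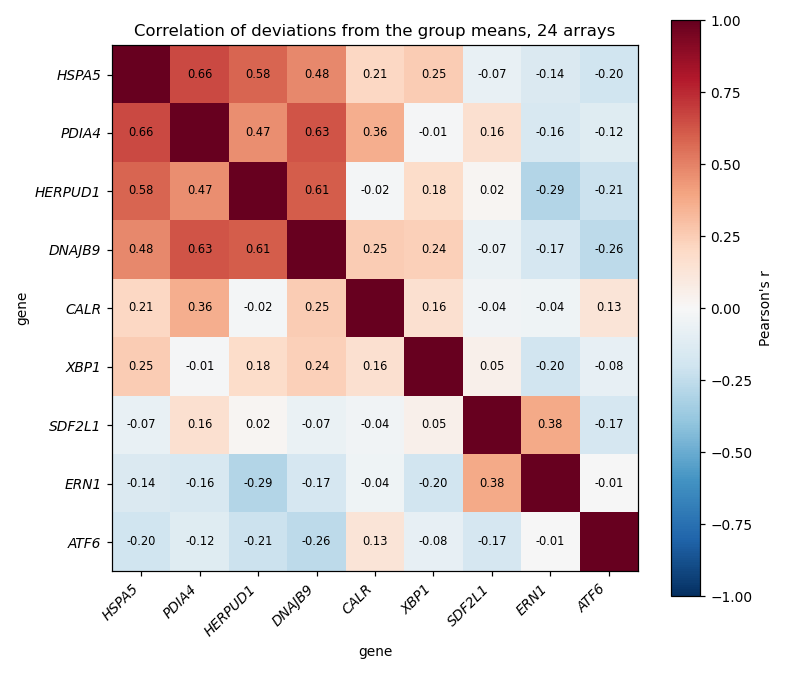
Pearson's r between the deviations of 2 genes from their group means over the 24 arrays, for each pair of the 9 measured genes (both axes). HSPA5, PDIA4, HERPUD1 and DNAJB9 form the red block in the upper left, with r of 0.47 to 0.66, which falls to 0.09 to 0.48 without 2 arrays.

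The gene whose signal was most like that of HSPA5 over the 24 arrays, among 6996 genes with a mean log2 signal above 6, was HYOU1, another chaperone of the endoplasmic reticulum (r = 0.68), whose own mean line difference was 0.11 (SE 0.04, limma adjusted p = 0.0432, and below 0.05 in 14 of 32 alternative settings). It was followed by BCAR1, TIAL1, APPBP2, ARID3B, ZCCHC2, ILRUN, FAF2, DPYSL2 and SPATS2L (r down to 0.60). PDIA4 ranked 18 (r = 0.57), HERPUD1 210, SDF2L1 1319, XBP1 1695, CALR 1838 and ATF6 5592. DNAJB9 and ERN1, with mean signals of 5.78 and 5.16, lay below the limit of 6 and were not ranked. By deviations from the group means the closest genes were RNF10 (r = 0.76), MMP2, APPBP2, CES1, NEO1, GALNT7, DYNC2I2, ELL2, MMP16 and BAG3 (r = 0.67), with PDIA4 at rank 15 and HERPUD1 at rank 68. By this measure XBP1 ranked 1415, CALR 1864, SDF2L1 5078 and ATF6 6064. APPBP2 was the only gene in both sets of 10. These ranks describe likeness over arrays that share 2 lines, 1 normalization and the 2 arrays named above.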

How the data were processed

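RNA of 24 samples in 8 groups was hybridised to Affymetrix whole-transcript arrays. The authors deposited log2 signals per probe set, made with RMA and Affymetrix Expression Console 1.1 per the submitters' processing notes. The set of arrays that RMA took together is not given in the sources. RMA removes background and brings arrays to 1 distribution, which can shrink differences near background. Of 24351 probe sets, 17709 had 1 symbol in the platform annotation; 2903 were controls and 3739 others were unnamed here. Where a gene had several (20 genes), the one with the highest mean was kept, leaving 17687 genes with no filter. Arrays carry no read depth, so their number limits the precision.

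Groups came from the titles. A single limma 3.58.1 model in R 4.3.3 (lmFit, then eBayes with an intensity trend) held a mean for each of the 8 groups, and p-values were adjusted by Benjamini-Hochberg over all genes. The fit was tested on simulated data. All adjusted p-values come from it unless another setting is named. The labels do not say that replicates were separate cultures, so p-values reflect only how far these samples spread, possibly for technical reasons. Same-numbered replicates deviated together (every correlation above 0.1) in 4 of 12 comparisons: knockout against parental cells after 2 Gy at 24 h and at 0 Gy and 4 h, and 2 Gy against 0 Gy in knockout cells at 24 h and 4 h.

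The members and lists were chosen with earlier results of these data known. Named are all members, up to 4 called genes of each other list with the largest differences, and, as like HSPA5, the 10 genes with the highest r by each measure. OS9 lies outside this rule and is named as the only lower gene of its list. The 4 members with the closest deviations were singled out after their values were seen, as were the called PERK branch genes beyond the first 4. Alternatives were no intensity trend, array weights, the replicate block, median centring, cyclic loess, dim genes left out, the lowest-mean probe set, the compared arrays only, arrays of narrow range left out, and each array left out in turn. Promoter windows came from RefSeq (GRCh38.p14). HSP90B1 is not analysed here beyond its promoter.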

Additional observations from a re-analysis of the deposited data

How the results depend on the processing

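Of 2808 recomputed values of single members, 2801 kept their direction where called and their side of the threshold, 7 newly passed it, and 0 lost a call or reversed. Of 312 recomputed counts of members called, 308 equalled those reported or, in 3 fits of the mean of 4 conditions, also held HSPA5. The other 4 were all for knockout minus parental at 0 Gy and 24 h, where 1 member, DNAJB9, was called against 0 in the reported fit: with only the compared arrays (limma adjusted p = 0.0405), with array weights (0.0345), with the replicate block (0.0314), and with only the compared arrays and the replicate block together (0.0383), a setting added after the data were seen. The replicate numbers did not pair these samples, and the block changed no other call of a member. Leaving out each array of that comparison in turn gave 0 calls in all 6 fits. Of 1472 recomputed values of other named genes, 110 lost a call and none reversed, and the count of other pathway genes called between the lines stayed at 57 to 75 over 32 settings, against 67. The cause of the other 3 new calls of members, all of HSPA5 in the mean of 4 conditions, was not tested. Restricting the fit to compared arrays is the reported fit for the mean of 4 conditions, and was not run again. The lowest-mean probe set alters no member, since each has 1. With 3 arrays a group, the intervals of single comparisons leave smaller differences undecided, up to a size that depends on the gene. For irradiation they ran from -0.23 to 0.20 for HSPA5 and from -0.15 to 0.17 for CALR. They left most undecided for ERN1, DNAJB9 and HERPUD1. The array gives no reading of XBP1 splicing, of protein, or of cleaved ATF6.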
